A study of Oryza sativa Indica Group with 36 samples.

Results

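When a rice leaf ages or stays long in the dark, chlorophyll is taken apart by a chain of plastid enzymes. Chlorophyll b is first reduced towards chlorophyll a by NYC1 and NOL, the magnesium is removed by SGR (Stay-Green), the phytol tail is cut off by pheophytinase (OsPPH), and the ring is opened by pheophorbide a oxygenase (OsPAO). The product is then reduced by OsRCCR1, and OsNAP is a NAC transcription factor that promotes leaf senescence. These 7 genes were chosen by their RAP identifiers and not by a cut on their values, though with earlier results of these data known. Of the 7, 6 have a row among the 35477 loci of each file, all 6 passed the filter on low counts that left 21772 genes, and OsRCCR1 was not analysed here.

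Their spans are those of the files, on IRGSP-1.0. NYC1 (OS01G0227100) spans 7024236 to 7031084 on chromosome 1. NOL (OS03G0654600), OsPAO (OS03G0146400) and OsNAP (OS03G0327800) lie on chromosome 3, at 25520073 to 25525342, at 2576535 to 2580217 and at 11974421 to 11976210. OsPPH (OS06G0354700) spans 14526717 to 14531652 on chromosome 6, and SGR (OS09G0532000) 20868717 to 20871275 on chromosome 9. The identifier of OsRCCR1 is OS10G0389200.

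The genes were measured by RNA sequencing in 36 libraries from the uppermost fully expanded leaves of 45-day indica rice seedlings grown under natural long days. Leaves were taken at 6 clock hours of 1 day, every 4 h from 4:00 to 0:00. The genotypes were the parental cultivar Guangluai4 (GL) and OsPRR37-OE5, a line that overexpresses the clock-related pseudo-response regulator OsPRR37 (OE), with 3 libraries for each genotype and hour. The overexpressor is 1 line, and the promoter that drives its transgene is not given in the sources used here. For GL replicate 3 at 0:00 the labels conflict: the genotype entry gives the overexpressor, the title and the design give GL, and it was kept in GL.

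Total counts ran from 8065894 to 15769659 per library. OsPRR37 itself lay between 1.49 and 505 CPM in GL and between 800 and 1726 CPM in OE, where CPM is the count scaled to library size after TMM normalisation. OE exceeded GL by 391-fold at 4:00 and by 3.25-fold at 12:00. In the library with conflicting labels, GL replicate 3 at 0:00, OsPRR37 was at 3.81 CPM. At the same hour GL replicates 1 and 2 had 4.31 and 3.82 CPM, and the OE libraries had 853.6, 984.6 and 945.1 CPM. By its OsPRR37 level this library was therefore like GL and unlike OE. The leaf marker OsRBCS2, a small subunit of Rubisco, was at 3592 CPM or more in every library, and the meristem marker OSH1 had no count in any. Rubisco activase OsRCA, another leaf marker, was listed at 0 in 5 GL and 4 OE libraries. Replicate 1 stood apart from replicates 2 and 3. The third principal component, with 7.78% of the variance, followed the replicate number with an R2 of 0.649. The cellulose synthases of secondary walls, OsCesA4, OsCesA7 and OsCesA9, were 1.23 to 2.0 higher on the log2 scale in replicate 1, at levels of 10.5 CPM or less in every library. Their part in the results was not tested. Results are therefore also given for replicates 2 and 3 alone. In whole leaves, fewer cells of a type and less RNA per cell cannot be told apart.

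Per transcript length, NYC1 was the most abundant of the 6 genes and OsNAP the least. Mean FPKM (fragments relative to gene length and library size) over the 18 GL libraries was 214 for NYC1, 50.3 for OsPPH, 36.6 for OsPAO, 22.3 for NOL, 11.5 for SGR and 4.46 for OsNAP. The order was the same in OE, with means of 212, 40.5, 30.4, 20.1, 12.2 and 4.12 FPKM. The ranges of neighbours in this order overlapped over the day, so the order describes day means. The least abundant gene, OsNAP, rested on 12 to 168 counts per library, and NYC1 on 642 to 13847.

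**Figure D1:**
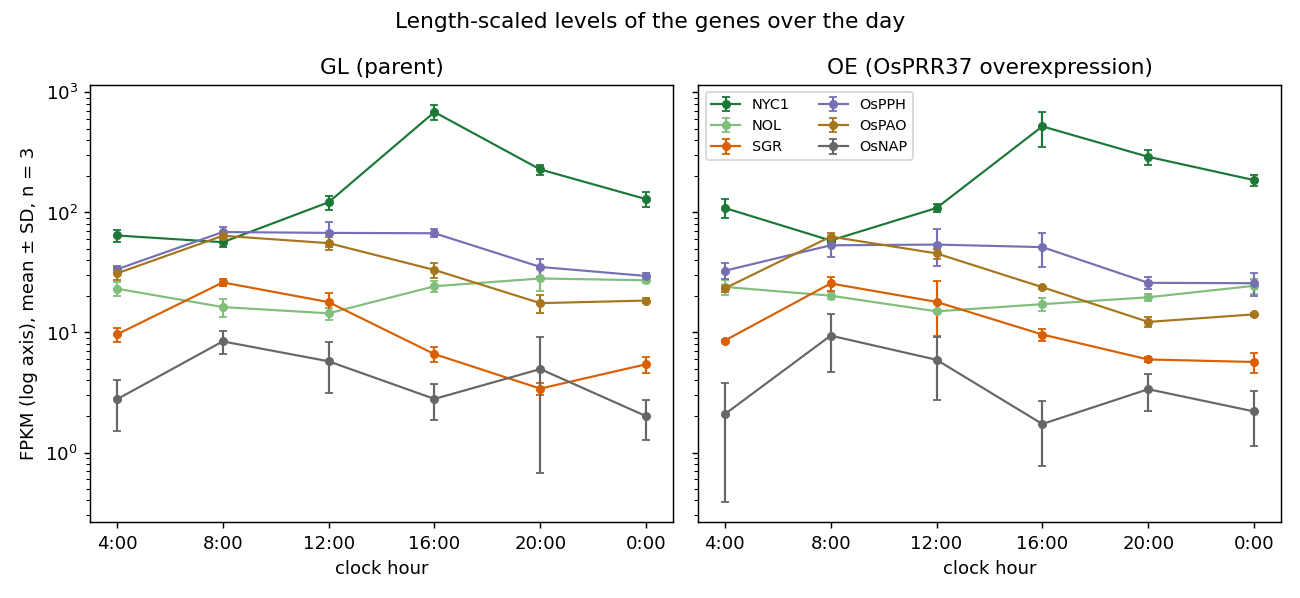
FPKM on a log axis against clock hour, in GL and OE, as mean ± SD of 3 libraries for each gene. NYC1 stands above the other genes at 16:00, 20:00 and 0:00 in both genotypes, and OsNAP stays below NOL, OsPPH and OsPAO at every hour.

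All 6 genes changed over the sampled hours in GL and in OE by edgeR's quasi-likelihood test, as did 69.7% of all genes in GL and 68.6% in OE. The largest adjusted p among them was 0.035, for OsNAP in GL, whose call was lost in 9 of 36 fits that each left out 1 library. The steps of the pathway did not share a peak hour. SGR and OsPAO were highest at 8:00, OsPPH was high from 8:00 to 16:00, NYC1 peaked at 16:00, and NOL was highest at night. These hours and the ranges below rest on TMM, whose mean factor ran from 0.717 at 8:00 to 1.28 at 20:00. On total counts the GL ranges were 16.0-fold for NYC1, 3.36 for NOL, 4.08 for SGR and 2.0 for OsPAO. OsPPH was then highest at 16:00, and OsNAP in GL at 20:00. Change over hours was then called for 5 of the 6 genes in GL and 4 in OE, beside 16945 and 16778 of 21772 genes.

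NYC1, a chlorophyll b reductase, had the widest daily range. In GL it stood at 82.5, 105.5 and 101.6 CPM at 8:00 and at 969, 1044 and 1109 CPM at 16:00, a 10.8-fold difference between the group means. In OE the corresponding values were 97.6, 115.4 and 109.2 CPM and 1021, 764.8 and 702.3 CPM, a 7.72-fold difference. The 8:00 and 16:00 libraries did not overlap in either genotype. These hours were picked as the lowest and highest means of NYC1. How many genes separate in this way at their own extreme hours was not counted. NOL, the second chlorophyll b reductase, followed a shallower course and was lowest at 12:00 in both genotypes. Its group means ran from 19.1 CPM at 12:00 to 39.7 CPM at 20:00 in GL, a 2.08-fold range, and from 20.7 CPM at 12:00 to 33.3 CPM at 0:00 in OE, a 1.61-fold range. The NOL libraries of 20:00 and 0:00 overlapped in GL, so its highest hour is not set by these data.

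SGR, which removes magnesium from chlorophyll a, ran nearly opposite to NOL. It was at 26.7, 26.9 and 25.4 CPM at 8:00 and at 3.77, 4.06 and 2.84 CPM at 20:00 in GL. These were its highest and lowest hours by mean, 7.41-fold apart and without overlap, with the limit given for NYC1. In OE the highest mean was also at 8:00 and the lowest at 0:00, a 4.33-fold range. OsPAO was highest at 8:00 and lowest at 20:00, with a 3.49-fold range in GL and a 4.87-fold range in OE. OsPPH formed a plateau, with GL means of 135 CPM at 8:00, 129 CPM at 12:00 and 129 CPM at 16:00, and a lowest mean of 57.9 CPM at 0:00. The libraries of the plateau hours overlapped.

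OsNAP had its highest mean at 8:00 in both genotypes, GL averaging 10.3 ± 2.2 CPM and OE 11.4 ± 5.6 CPM (SD, n = 3). Its libraries scattered more than those of the other genes. At 20:00 the GL libraries were at 1.44, 5.35 and 11.9 CPM. Of the neighbours in its order of hours, all overlapped. A 24-h harmonic was called for 5 of the 6 genes in GL, where 71.8% of all genes were called, and for all 6 in OE, where 70.4% were. The gene not called in GL was OsNAP, with an adjusted p of 0.16. OsNAP overlaps the span of another locus on the same strand, OS03G0326600, which reached 19.4 CPM, so reads of the 2 loci may be shared. No other member overlaps a locus.

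Across the 12 group means of log2 CPM, OsPAO went with SGR (Pearson r 0.893) and with OsPPH (0.854), and NOL ran against SGR (-0.827). NYC1 followed none of them closely, with r from -0.578 for SGR to 0.263 for NOL. These are descriptions over 12 means that share libraries and hours. The first 3 values with replicates 2 and 3 alone were 0.838, 0.841 and -0.732. Among all genes tested, the pattern most like that of OsPAO was that of OS01G0662600 (chromosome 1, 27047445 to 27050503, IRGSP-1.0), with r 0.992 over the 12 means. The one most like SGR was OS06G0225300 (chromosome 6, 6484145 to 6488599), with r 0.985. With replicates 2 and 3 alone these values were 0.981 and 0.954, and the genes ranked 10 and 32.

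**Figure D2:**
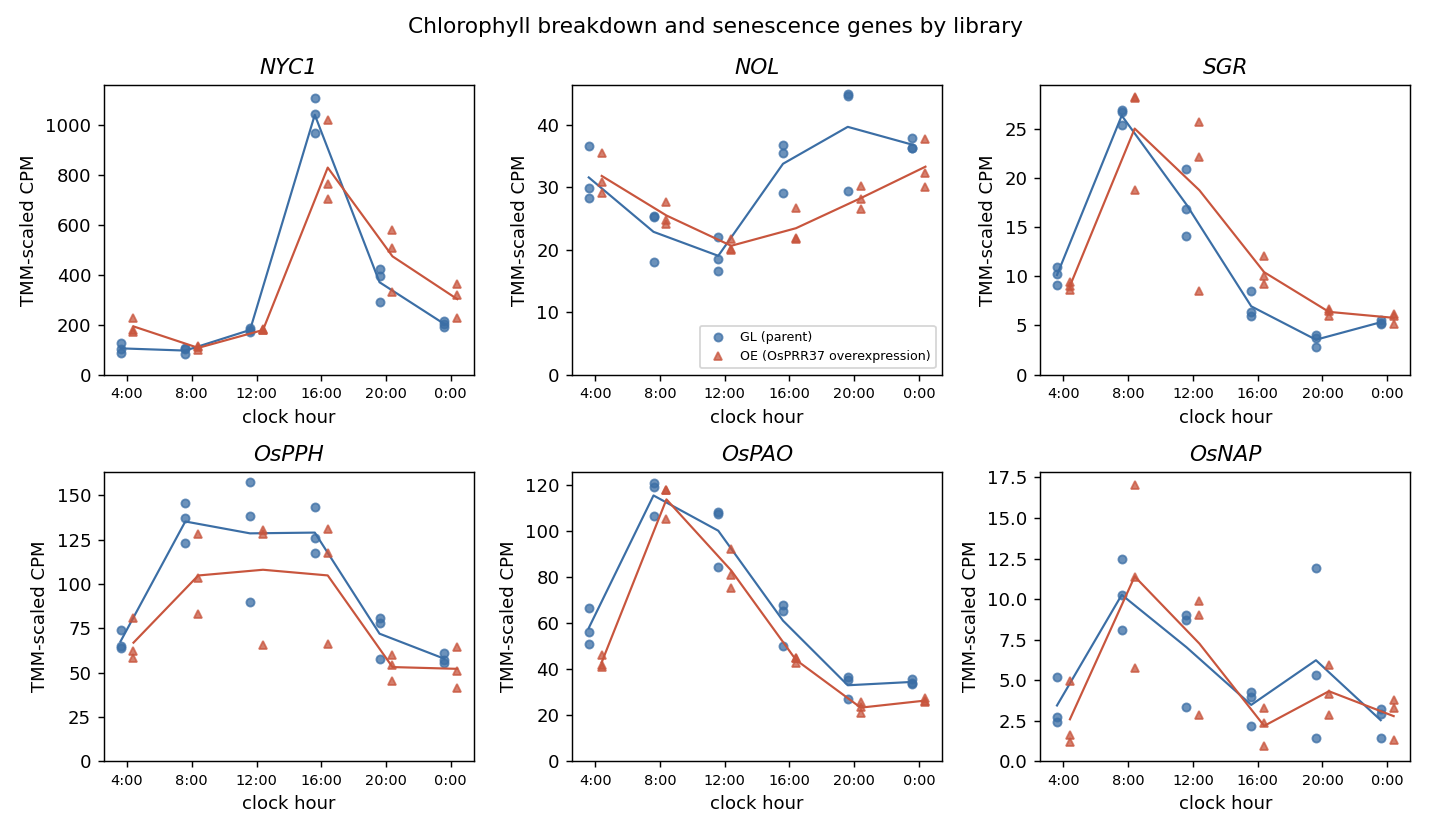
TMM-scaled CPM of each gene in every library against clock hour, with circles for GL, triangles for OE and lines through the means of 3 libraries. NYC1 peaks at 16:00 with GL libraries from 969 to 1109 CPM, SGR and OsPAO peak at 8:00, and the OE libraries of OsPAO lie below those of GL at every hour but 8:00 and 12:00.

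Averaged over the 6 hours, NYC1, of the first step, and OsPAO, the last enzyme measured, differed between the genotypes in opposite directions. NYC1 was higher in OE by 0.27 on the log2 scale (SE 0.077, 1.21-fold, adjusted p = 0.0095 by edgeR), and OsPAO was lower by 0.35 (log2 fold change -0.35, SE 0.052, 0.787-fold, adjusted p = 1.07e-05). For NYC1 this is a mean of log2 differences: its mean CPM over the day was 1.05 times that of GL, with OE lower at 2 of 6 hours, and mean FPKM was 214 in GL and 212 in OE. NOL, which acts at the same step as NYC1, did not pass and had a log2 fold change below 0. These calls were 2 of 6 genes called, against 26% of all genes, with 14% higher and 12% lower in OE. With total counts in place of TMM, an alternative added after seeing the data, the split over all genes was 4523 higher and 1395 lower, against 3052 and 2610 here. Under that scaling the median log2 fold change of all genes was 0.0943 on average, 0.153 at 4:00 and 0.187 at 12:00, against -0.0028, -0.016 and 0.0049 here, and both calls were kept.

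The other 4 genes did not pass by edgeR. Their log2 fold changes were -0.25 for OsPPH (SE 0.099, adjusted p = 0.059), 0.24 for SGR (SE 0.099, adjusted p = 0.078), -0.15 for NOL (SE 0.063, adjusted p = 0.085) and -0.20 for OsNAP (SE 0.25, adjusted p = 0.62). OsPPH passed in 4 of 10 alternatives, among them DESeq2 (adjusted p = 0.040) and limma on log2(FPKM + 1) (0.017). The median of the 6 genes was -0.17, beside -0.0028 for all genes tested. With replicates 2 and 3 alone, where 31.1% of genes were called, SGR also passed, at 0.41 (SE 0.068, adjusted p = 2e-04). It passed too with total counts in place of TMM, where 3 of the 6 genes were called, beside 5918 of 21772 genes. SGR likewise passed without OE replicate 1 at 12:00 (adjusted p = 0.0026), the library at 8.47 CPM beside 25.7 and 22.1 CPM in the others of its group. The NYC1 call was lost in 3 of 10 alternatives, with adjusted p up to 0.11, one of them limma on log2(FPKM + 1) (0.059), while with replicates 2 and 3 alone NYC1 (0.26, adjusted p = 0.0015) and OsPAO (-0.35, adjusted p = 6.4e-06) passed.

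At single hours, 4 of the 36 tests of a gene at an hour passed, beside 4911 of 130632 such tests over all genes. NYC1 was higher in OE at 4:00, where 4.48% of all genes were called. Its GL libraries stood at 86.1, 102.7 and 127.6 CPM and its OE libraries at 172.3, 228 and 179.8 CPM. Every OE library lay above every GL library, as for 7.93% of genes at that hour, and the log2 fold change was 0.87 (SE 0.19, 1.83-fold, adjusted p = 0.0050). It was 0.82 (adjusted p = 7.8e-04) with replicates 2 and 3 alone, where 8.45% of genes were called at 4:00. At 0:00, GL was at 202.8, 192.1 and 214.6 CPM and OE at 227.6, 362.1 and 318.3 CPM. The groups again did not overlap, as for 9.32% of genes, but the difference did not pass (log2 0.58, SE 0.19, adjusted p = 0.13). It did with replicates 2 and 3 alone (0.74, adjusted p = 0.0027), where 5.42% of genes were called at 0:00. At the 16:00 peak, the first OE library was at 1021 CPM, among the GL libraries, and the others lay below all of them. The log2 fold change there was -0.33 (SE 0.19, adjusted p = 0.32), and -0.52 (adjusted p = 0.011) with replicates 2 and 3 alone, where 17.9% of genes were called at 16:00.

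OsPAO was lower in OE at 16:00 and at 20:00, hours at which 7.91% and 2.51% of all genes were called. At 16:00 its GL libraries were at 50.2, 68.1 and 65.3 CPM and its OE libraries at 45, 44.9 and 42.6 CPM. The groups did not overlap, as for 13.3% of genes in that direction, and the log2 fold change was -0.47 (SE 0.13, adjusted p = 0.020). At 20:00, GL was at 27, 35.5 and 36.9 CPM and OE at 20.9, 23.5 and 25.8 CPM. These groups did not overlap either, as for 11.4% of genes, with a log2 fold change of -0.50 (SE 0.13, adjusted p = 0.030). OsPAO libraries of OE also lay below those of GL at 4:00 (log2 -0.43, adjusted p = 0.052) and at 0:00 (-0.39, adjusted p = 0.14), as for 9.21% and 8.59% of genes, without passing by edgeR. DESeq2 called the 4:00 difference (adjusted p = 0.027). At its 8:00 peak the difference was -0.02 (SE 0.13). With replicates 2 and 3 alone OsPAO passed at 16:00 (-0.58, adjusted p = 7.5e-04), 20:00 (-0.56, adjusted p = 0.0031) and 0:00 (-0.38, adjusted p = 0.043). The 16:00 call was lost without GL replicate 2 (adjusted p = 0.11), GL replicate 3 (0.083), OE replicate 2 (0.065) or OE replicate 3 (0.090) of that hour. The 20:00 call was lost without GL replicate 2 (0.16), GL replicate 3 (0.16), OE replicate 1 (0.15) or OE replicate 2 (0.11) of its hour.

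NOL was lower in OE at 16:00, with GL at 36.8, 35.5 and 29.1 CPM and OE at 26.8, 21.8 and 21.9 CPM. The groups did not overlap, as for the 13.3% of genes above, and the log2 fold change was -0.53 (SE 0.15, adjusted p = 0.031). The call was lost with replicates 2 and 3 alone (adjusted p = 0.052) and without GL replicate 1 (0.14), GL replicate 2 (0.10), OE replicate 2 (0.14) or OE replicate 3 (0.14) of that hour. At 20:00 NOL stood at 45, 44.7 and 29.4 CPM in GL and at 28.1, 30.2 and 26.5 CPM in OE, which overlapped and did not pass by edgeR (log2 -0.49, adjusted p = 0.089), though DESeq2 called it (adjusted p = 0.030). Without GL replicate 3 at that hour it passed (-0.67, adjusted p = 0.014).

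SGR ran the other way in the evening. At 16:00 its GL libraries were at 8.53, 5.95 and 6.37 CPM and its OE libraries at 9.17, 12.1 and 10 CPM. At 20:00 they were at 3.77, 4.06 and 2.84 CPM and at 6.01, 6.49 and 6.66 CPM. Every OE library was above every GL library at both hours, as for 10.9% and 9.76% of genes, and neither difference passed by edgeR. The log2 fold changes were 0.59 (SE 0.24, adjusted p = 0.15) and 0.84 (SE 0.25, adjusted p = 0.077). Both passed with replicates 2 and 3 alone, at 0.87 (adjusted p = 0.0017) and 0.90 (adjusted p = 0.0055), as did 12:00 at 0.60 (adjusted p = 0.031). In that fit 5.28% of genes were called at 20:00 and 5.71% at 12:00. The FPKM ratio of OsPAO to SGR at 20:00 ran from 3.82 to 6.63 in the GL libraries and from 1.92 to 2.12 in the OE libraries. The ranges were also apart at 4:00 and 16:00, and they overlapped at 8:00, 12:00 and 0:00. At 8:00 the mean ratio was 2.46 in GL and 2.47 in OE. Ratios of other gene pairs were not taken as a background.

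OsPPH had a lower mean in OE at all 6 hours, with log2 fold changes from -0.44 at 20:00 to -0.02 at 4:00, and no hour passed. Its libraries overlapped between the genotypes at every hour. For OsNAP the log2 fold changes ran from -0.65 to 0.16 with SEs of 0.59 to 0.63, and the libraries also overlapped at every hour. At 8:00, 12:00 and 0:00, where 3.31%, 2.02% and 2.33% of all genes were called, none of the 6 genes passed by edgeR. At an unadjusted p under 0.05 there were 0, 1 and 2 of them, beside 3471, 2770 and 2647 of 21772 genes. DESeq2 called 0 of the 6 genes at each of these hours after adjustment, beside 1004, 706 and 761 genes in all. When only the libraries of an hour were fitted, 0 of the 36 tests passed, beside 1631 of 112980 such tests over all genes. With total counts in place of TMM only NYC1 at 4:00 passed (adjusted p = 0.0059), beside 5030 of 130632 tests over all genes.

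**Figure D3:**
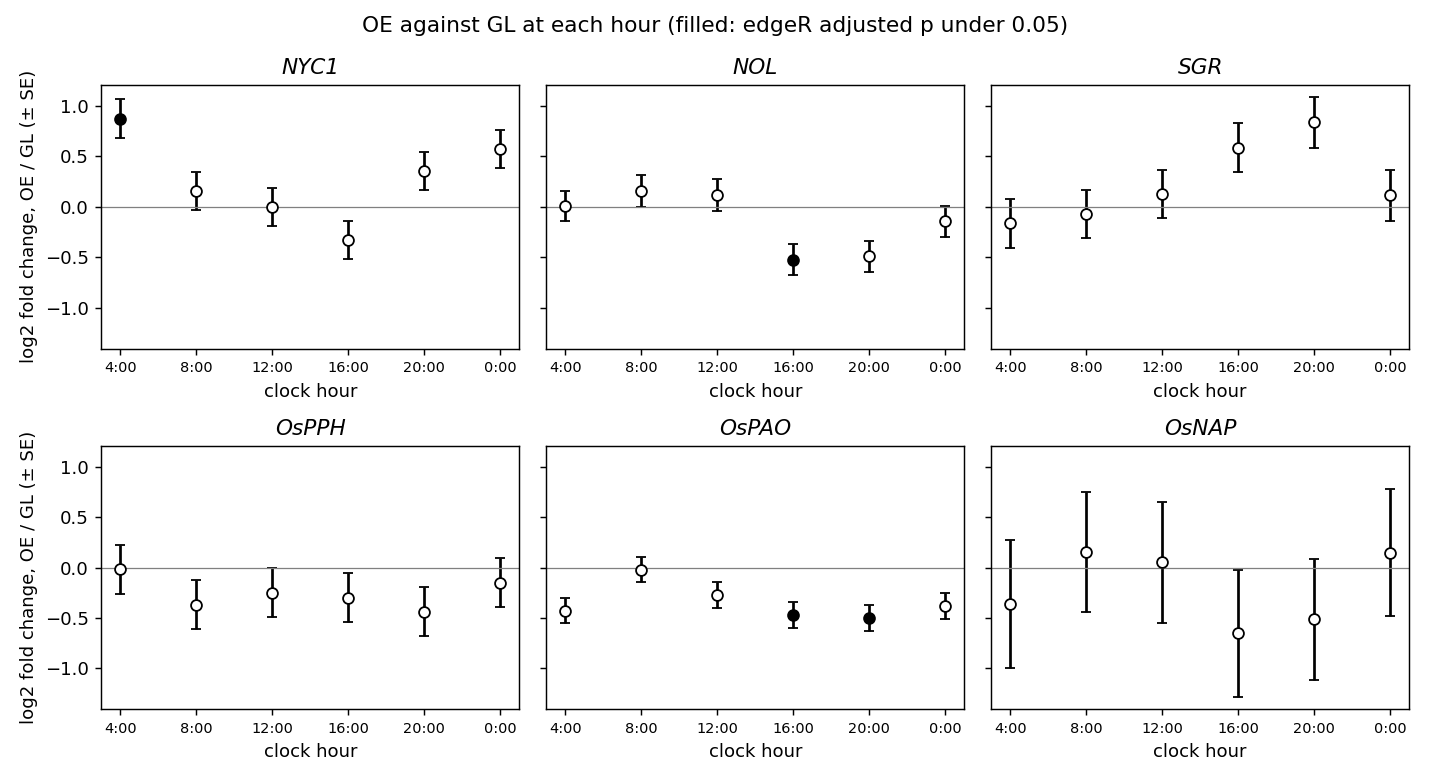
Log2 fold change of OE over GL with its SE at each clock hour for each gene, where filled points passed an adjusted p of 0.05 in edgeR. The filled points are NYC1 at 4:00 (0.87), NOL at 16:00 (-0.53) and OsPAO at 16:00 (-0.47) and 20:00 (-0.50).

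Whether the genotype difference itself changed with the hour was tested as an interaction, called for 1.88% of all genes. None of the 6 genes passed by edgeR. At an unadjusted p under 0.05 there were 2 of the 6, beside 2466 of 21772 genes. DESeq2 called 2 of the 6, beside 1035 of 19634 genes, and limma on log2(FPKM + 1) called 1, beside 399 of 21772. The smallest adjusted p in edgeR was 0.079, for NYC1 (unadjusted p = 0.0020). NYC1 stayed uncalled in 4 of 10 alternatives and was called in the others, with adjusted p from 0.0017 to 0.23. It was also called in 3 of 36 fits that left out 1 library. With replicates 2 and 3 alone, where 7.4% of genes were called, NYC1 (adjusted p = 0.0017) and SGR (adjusted p = 0.024) passed. The 24-h harmonic differed between the genotypes for none of the 6 genes in edgeR and for 0.0919% of all genes. At an unadjusted p under 0.05 there were 2 of the 6, beside 1472 of 21772 genes. No other tool was run on the harmonic. The fitted peak of NOL lay at 21.9 h in GL and 0.96 h in OE (adjusted p of the difference = 0.29).

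Genes around the pathway were taken from lists of senescence regulators, abscisic acid genes, nutrient remobilisation and further chlorophyll breakdown genes. Of 34 listed genes, 30 were in the files. The 17 whose name the reference table, of another assembly, holds on the same chromosome were used. The largest distance between their starts was 4.38 Mb, for OsABA8OX3. NYC4, a thylakoid protein whose loss in rice delays chlorophyll breakdown, was the 1 further breakdown gene used. It was lower in OE by a log2 fold change of -0.41 (SE 0.079, adjusted p = 2.7e-04), with a lower mean at all 6 hours. At 16:00 GL averaged 497 ± 24 CPM and OE 311 ± 76 CPM (SD, n = 3), with a log2 fold change of -0.67 (adjusted p = 0.029).

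Of 6 senescence regulators, 2 rose, 1 fell and 3 did not pass on average, with a median log2 fold change of 0.16, beside 14% of all genes higher and 12% lower. OsDOS, a zinc finger protein that delays leaf senescence in rice, had the largest difference of them, -1.57 (SE 0.24, 0.337-fold, adjusted p = 1.2e-05), and a lower mean in OE at all 6 hours. At 20:00 GL averaged 15 ± 7.2 CPM and OE 2.6 ± 2.1 CPM. OsNAC2, a NAC factor that promotes senescence, was higher by 0.55 (SE 0.13, adjusted p = 0.0015), and the stress-responsive OsNAC6 by 0.17 (SE 0.057, adjusted p = 0.030). The OsNAC6 call was lost in 3 of 10 alternatives, with adjusted p up to 0.23. OsNAC5 (0.24), OsEIL1 (0.14) and OsEIN2 (-0.04), the last pair in ethylene signalling, did not pass.

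Of 6 abscisic acid genes, 5 were lower in OE, none was higher, and the median log2 fold change was -0.50, beside 12% of all genes lower and a median of -0.0028. They included genes of synthesis and of breakdown of the hormone. OsZEP1, a zeaxanthin epoxidase at the start of synthesis, was at -0.45 (adjusted p = 3.3e-06), and OsNCED3, a later enzyme of synthesis, at -0.60 (adjusted p = 0.024). The 8'-hydroxylases OsABA8OX2 and OsABA8OX3, which inactivate the hormone, were at -0.45 and -0.69 (adjusted p = 8.6e-04 and 1.3e-04). The response factor OsbZIP23 was at -0.55 (adjusted p = 5.9e-04), and OsABA8OX1 did not pass (0.11, adjusted p = 0.78). The OsNCED3 call was lost without GL replicate 1 at 12:00 and in 3 of 10 alternatives, with adjusted p up to 0.24 and a log2 fold change as small as -0.26. Of 4 remobilisation genes, OsATG8A, an autophagy protein, rose by 0.18 (adjusted p = 0.027, lost in 5 of 10 alternatives with values up to 0.195), and OsATG8B (0.13), OsATG8C (-0.03) and the cytosolic glutamine synthetase OsGS1;1 (-0.01) did not pass. With replicates 2 and 3 alone, 31.1% of all genes were called on average, with 3687 higher and 3109 lower of 21819. In that fit 3 senescence regulators were higher and 1 lower, 5 abscisic acid genes were lower, and 2 remobilisation genes were higher. With all 36 libraries, 1 of 3 leaf markers was called on average. OsRBCS2 (-0.05, adjusted p = 0.86 by edgeR) and OsRCA (-0.31) did not pass. The leaf marker called, the light-harvesting gene CAB2R, fell in OE by 1.29 on the log2 scale (0.409-fold, adjusted p = 1.2e-05). At 4:00 it fell by 2.90 (0.134-fold, adjusted p = 4.9e-04). It was also called at 20:00 (-1.88, adjusted p = 0.031), and its day means were 6890 CPM in GL and 4673 CPM in OE; its part in these results was not tested.

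**Figure D4:**
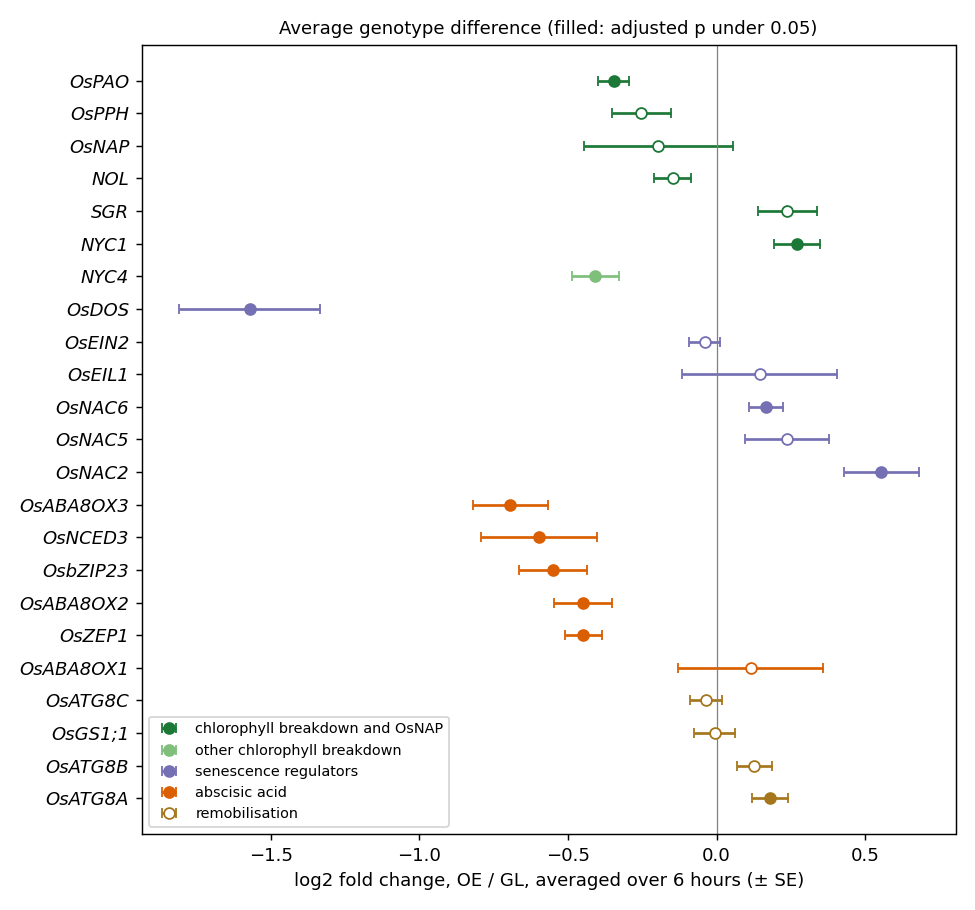
Log2 fold change of OE over GL averaged over the 6 hours with its SE, for the 6 genes and the 17 genes around the pathway, coloured by list and filled where the adjusted p was under 0.05. NYC1 (0.27) and OsPAO (-0.35) are filled on opposite sides of 0, OsDOS lies farthest from 0 at -1.57, and 5 of the 6 abscisic acid genes are filled below 0.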

How the data were processed

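Per the labels, RNA was isolated with TRIzol, treated with DNase and made into libraries with a kit that does not mark strand. The submitters' processing notes name Cuffdiff, Cufflinks and TopHat2 and the build IRGSP-1.0, with no version or setting. The deposited count column holds expected counts that were taken as rounded up: 99.91% of those above 0 lay within 1 of the deposited normalised signal over a factor per library, the only use of that signal. The deposited FPKM values are the authors' and sum to 753241 to 1708730 per file; whether they were rescaled between libraries is not stated. Coordinates are those of the files.

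Counts of all 36 libraries, with a median total of 12531717, were fitted with edgeR 4.0.16 in R 4.3.3 in 1 model of 12 groups (TMM, filterByExpr with minimum count 10 and total 15, quasi-likelihood F test, Benjamini-Hochberg over 21772 genes, threshold 0.05). Contrasts were OE against GL averaged and at each hour, the interaction, change over hours, and a 24-h harmonic; with 1 day sampled, the period is assumed. The SE given for an edgeR log2 fold change is its absolute value over the square root of the F statistic. Alternatives used DESeq2 1.42.0 and limma 3.58.1 on log2(FPKM + 1) and log2(FPKM + 0.1). The fits were tested on simulated data. The design terms the 3 libraries biological repeats; whether they came from separate plants, or a number marks 1 batch, is not stated, so p-values measure only the spread between these libraries. Replicates of a group differed by a chi-square per gene of 6.09 to 88.4, so none were merged.

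The members and the gene lists were chosen with earlier results of these data known. All members and every kept list gene are named. The files give no gene names: NYC1, NOL and SGR were found in the reference table of assembly ASM3414082v1, while OsPPH, OsPAO and OsNAP are published names for those identifiers. The starts of NYC1, NOL and SGR there were 0.01, 0.87 and 4.44 Mb from those of the files, on the same chromosomes. Neither gene given by identifier for its similar pattern was on a list; the rule took the best match of the 2 members with the highest r. Promoter sequences were not analysed here.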

Additional observations from a re-analysis of the deposited data

Results flagged for a closer look

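The difference between OE and GL in OsZEP1, the zeaxanthin epoxidase of abscisic acid synthesis, depended on the hour (interaction, edgeR adjusted p = 0.0426). It stood at -0.03 on the log2 scale at 4:00, -0.85 at 16:00 (adjusted p = 6.2e-04) and -0.93 at 20:00 (adjusted p = 3.5e-04). At 20:00 GL averaged 79 ± 16 CPM and OE 41.5 ± 0.59 CPM (SD, n = 3). The interaction lost its call in 20 of 36 fits that left out 1 library, with adjusted p from 0.010 to 0.095 over these fits, and in 1 of the 10 other alternatives. Its cause was not tested.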

How the results depend on the processing

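No result changed sign among calls. The calls of NYC1 on average and at 4:00 and of OsPAO on average held in all 36 fits that left out 1 library. The NYC1 average call was lost with limma on log2 FPKM (adjusted p = 0.059 and 0.060) and with the replicate series as a random block in limma (0.11). Over 10 alternatives its adjusted p ran from 0.0015 to 0.11. OsPPH passed on average with DESeq2 (0.040), limma on FPKM (0.017 and 0.018) and the replicate block (0.0046).

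Members called on average numbered 1 with the series block, against 2, with 2225 genes in all against 5662. At single hours, 4 of 36 became 1 with total counts, 9 with replicates 2 and 3 alone and 0 with only the libraries of the hour. Over all genes 4911 calls became 5030 with total counts and 10166 with replicates 2 and 3. They became 9928 with the replicate block and 1631 with only the libraries of the hour. For the interaction, 0 members became 2 with replicates 2 and 3, 1 with the replicate block, 2 with DESeq2, 1 with limma at either pseudocount and 1 with the series block; over all genes 409 became 1615, 1022, 1035 with DESeq2, 845 with the series block, and 251 with GL replicate 3 at 0:00 grouped as OE. Harmonic differences over all genes went from 20 to 31 with total counts, 38 with replicates 2 and 3, 45 with the replicate block and 9 with that library as OE. The cause of these moves was not tested.

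Leaving out 1 library gave 2 to 3 members on average (5176 to 6170 genes), 2 to 6 at single hours (3847 to 6345), 0 to 1 for the interaction (249 to 724), 11 to 12 for change over hours (29492 to 30741), 10 to 12 for the harmonic (30556 to 31348) and 0 to 0 for its difference (13 to 35). Among tests of single genes, 5557 kept their side of the threshold, 60 gained it and 97 lost it. OsPPH passed on average in 8 fits without 1 library and NOL in 4. OsNAC6 lost its average call in 13 of them and OsATG8A in 7. Peak hours moved in 5 of 36 comparisons, among them OsPPH, highest at 16:00 on total counts.

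Libraries with the same number deviated together in 16 of 18 GL and OE pairs by a correlation over 0.1 (0.0637 to 0.521), and 15 of 18 GL libraries correlated best with their own number, a hint from the data and not the design. Since 2 pairs fell short, the reported values come from the model with no term for the number, and the fits with a block stand here as alternatives.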

Other observations

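OsNAP was lower in replicate 1 than in the mean of replicates 2 and 3, by -0.961 on the log2 scale in GL (5 of 6 hours) and -1.26 in OE (all 6 hours). OsNAC5, a stress-responsive NAC gene, showed the same direction, at -0.475 and -0.626. OsPPH was at -0.248 in GL and -0.549 in OE, and SGR at 0.2 in GL and -0.397 in OE. These are values with no test.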
